A study of Homo sapiens with 24 samples.

Results

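EGF treatment of serum-starved A2780 cells, a human ovarian cancer line, was examined on 12 of the 24 expression arrays of the series, the 4 labelled EGF treated and the 8 labelled Control. These are 2 arrays of Rab25 cells with EGF, 2 of pcDNA cells with EGF, 4 of starved Rab25 cells and 4 of starved pcDNA cells, split evenly over experiments 1 and 2, so that each line in each experiment has 1 EGF array and 2 starved arrays. Rab25 cells are A2780 cells made to express Rab25, a small GTPase of endosome recycling, and pcDNA cells carry the empty vector; each is 1 transfected line. Every culture was kept without serum for 8 h, and the cells of the EGF arrays then received EGF at 10 ng/ml. By the treatment protocol this exposure lasted 8 h in experiment 1 but 24 h in experiment 2; by the source names it lasted 24 h in each. Neither says how long the starved cells were kept beside the treated ones, so EGF and time in culture cannot be told apart in what follows. The other 12 arrays, of IGF, TGF beta and fetal bovine serum (FBS), were used only where named.

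EGF binds the receptor EGFR, a tyrosine kinase that signals through Ras and ERK and through PI3K and AKT. ERK activity induces immediate-early transcription factors such as EGR1, and AKT keeps FOXO transcription factors out of the nucleus, so that genes of starved, growth factor-deprived cells are typically expressed less. Growth factors also raise the demand for amino acids, which engages ATF4, the transcription factor of amino acid supply and the integrated stress response.

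The deposited values are log2 expression per probe set, and 1 probe set stood for each of 11940 genes. Array medians were 7.24 to 7.29 on the EGF arrays and 7.20 to 7.35 on the starved arrays, and the actin 3' minus 5' difference, which rises as RNA degrades, was 0.674 to 1.10 on the EGF arrays and 0.685 to 1.17 on the starved arrays. RAB25 itself was at 8.50 and 8.25 in Rab25 cells with EGF and at 8.21 to 9.08 in starved Rab25 cells, and at 5.32 and 5.55 in pcDNA cells with EGF and 4.90 to 5.32 in starved pcDNA cells. Its signal therefore followed the labelled line on every one of the 12 arrays, and its EGF response was 0.02 (log2, SE 0.17, limma adjusted p = 0.970). Of 10 epithelial markers, the keratin genes KRT8 and KRT18 averaged 12.7 and 14.0 over the 12 arrays, while CDH1 and EPCAM, the adhesion genes that define epithelium, averaged 5.48 and 5.09. No member of the epithelial, blood cell, endothelial, fibroblast, breast and adipocyte or liver marker lists passed the test. The mean blood cell marker signal was 5.65 to 5.76 with EGF and 5.66 to 5.82 in starved cells. Some markers of other cell types were bright: the endothelial genes CDH5 and ENG averaged 11.2 and 10.2, and the fibroblast gene DCN 12.0. The medians of the endothelial and fibroblast lists were 5.79 and 6.42.

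With EGF, 29 genes rose and 25 fell by limma, with line and experiment as blocks, at a Benjamini-Hochberg adjusted p under 0.05 over all genes. That is 0.452% of 11940 genes, 0.243% higher and 0.209% lower. Among the largest rises were CHAC1, an enzyme that degrades glutathione, and the chemokine gene CXCL2. The largest fall was that of the chemokine receptor gene CXCR4, followed by the oxidase gene NOX4, the matrix protease gene ADAMTS5, the FOXO-induced gene DEPP1 and the potassium channel gene KCNJ2. Changes were small: CXCR4 alone reached 2-fold, and 7 of the 54 genes reached 1.5-fold. All 54 had the same sign in the 4 combinations of line and experiment, as 10.7% of all genes did upward and 9.73% downward. In 52 of them each EGF array lay outside both starved arrays of its own line and experiment, as 4.26% of all genes did upward and 3.45% downward. FOXO1 and GDF15 were the exceptions. The 54 genes were picked by their p on these same arrays, which favours both traits, so neither count is separate support.

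The count depended on the arrays and on the fit. A fit of all 24 arrays called 0 genes (811 at an unadjusted p under 0.05, lowest adjusted p 0.0849). A fit without the experiment as a block called 0 (600 at an unadjusted p under 0.05). As the design is balanced, the 24-array fit gave the 54 genes the same log2 changes as the main fit. Only the estimate of the spread and its degrees of freedom differed, so the signs could not change. With 1 array left out, the count was 18 and 2 without Rab25 EGF replicates 1 and 2, and 60 and 7 without pcDNA EGF replicates 1 and 2. It was 15, 11, 11 and 14 without Rab25 starved replicates 1-1, 1-2, 2-1 and 2-2, and 13, 87, 11 and 10 without pcDNA starved replicates 1-1, 1-2, 2-1 and 2-2. The calls of ADAMTS5 and CXCL2 remained in 12 of these 12 fits, those of UPP1, KCNG1, SYBU and DKK1 in 11, and those of KCNJ2, GCH1 and FZD2 in 10, whereas ZFP69B remained in 5 and the other 14 of the 24 genes named here in 0 to 3. Without the first starved arrays of experiment 1, which had the highest actin 3' minus 5' signal of the starved arrays, 1 gene was called. No source says whether the arrays came from separate cultures, so these p values measure the spread between these arrays, which may be technical.

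**Figure D1:**
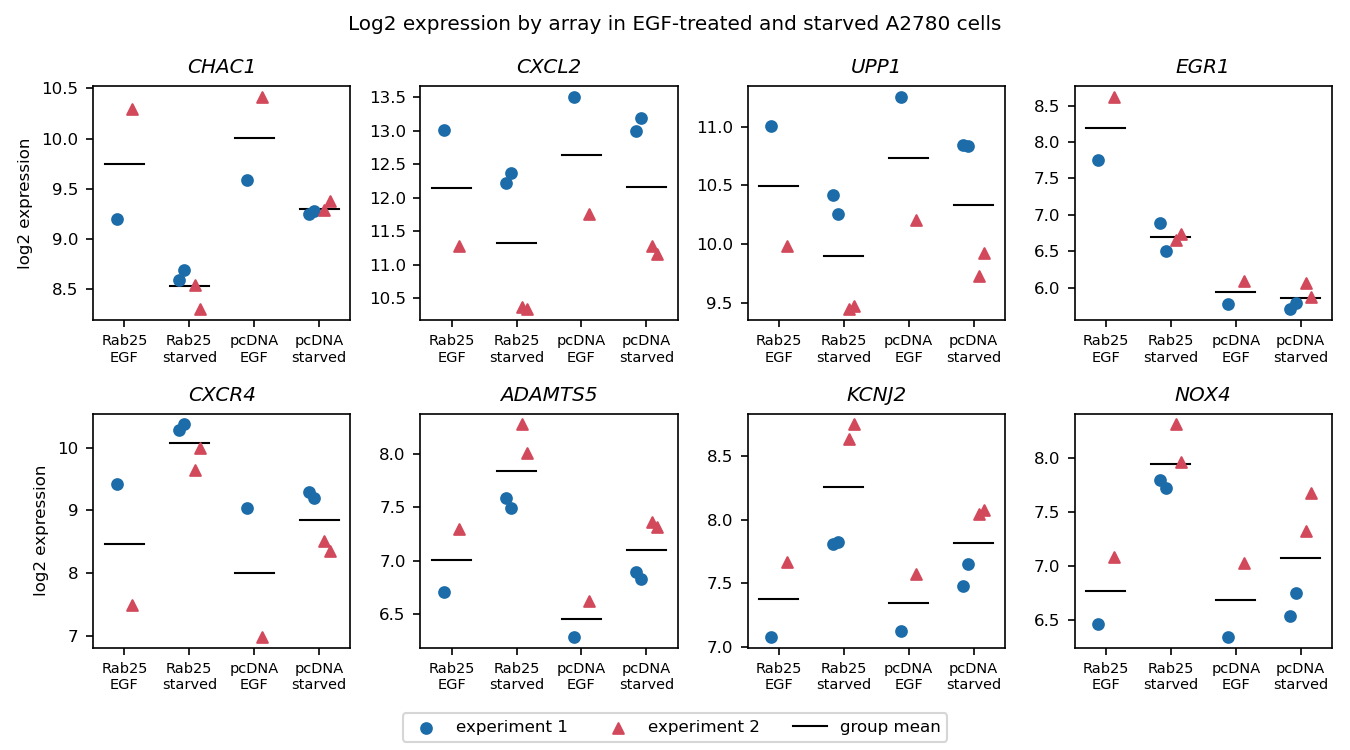
Log2 expression of 8 genes on each of the 12 arrays, for Rab25 cells with EGF, starved Rab25 cells, pcDNA cells with EGF and starved pcDNA cells. Circles are experiment 1, triangles experiment 2 and black bars group means; EGR1 sits at 7.76 and 8.62 in Rab25 cells with EGF and at 5.78 and 6.10 in pcDNA cells with EGF.

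CHAC1, a gene that ATF4 induces and whose product degrades glutathione, had the largest rise among the 54 genes. It was at 9.20 and 10.29 in Rab25 cells with EGF in experiments 1 and 2, against 8.30 to 8.69 on the 4 starved Rab25 arrays, and at 9.58 and 10.42 in pcDNA cells with EGF, against 9.25 to 9.38 on the 4 starved pcDNA arrays. Every EGF array was above all starved arrays of its line. The difference was 0.96 (log2, SE 0.18, 1.94-fold, limma adjusted p = 0.0474), made of 0.55 and 1.87 in Rab25 cells and 0.32 and 1.08 in pcDNA cells in experiments 1 and 2. The 250 bases before its start, from the RefSeq promoter table of GRCh38.p14, are shown because they hold a C/EBP-ATF element, the composite element that ATF4 binds with C/EBP factors (TGATGNAA, searched on both strands; here on the reverse strand, 201 bases before the start, in capitals). The window is chr15:40953221-40953470, plus strand.
CHAC1: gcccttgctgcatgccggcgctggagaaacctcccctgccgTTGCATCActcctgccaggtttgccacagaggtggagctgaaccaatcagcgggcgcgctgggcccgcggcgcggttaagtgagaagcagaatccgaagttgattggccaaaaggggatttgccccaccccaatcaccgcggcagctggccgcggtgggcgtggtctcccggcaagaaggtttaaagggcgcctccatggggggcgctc
Of 35116 such windows, 3.14% hold this element. A window was matched by symbol for 44 of the 54 genes, 22 rises and 22 falls; 5 of the rises (BCL2A1, CHAC1, GARS1, GOT1 and KRT34) and 1 of the falls (NOX4) hold it. The motifs given here were picked after the values were seen, and a match describes letters only.

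Of the 30 measured genes of the ATF4 and amino acid response, CHAC1 was the only one past the threshold over both experiments, and 0 fell. Of all genes, 0.243% rose past the threshold. The median log2 change of the list was 0.31, against 0.00 over all genes. Of the 30, 20 were higher in all 4 combinations of line and experiment, as 10.7% of all genes were. This and the other gene lists were chosen with earlier results of these data known. CEBPG, a partner of ATF4, had 0.46 (limma adjusted p = 0.0567), SLC1A4, a carrier of neutral amino acids, had 0.42 (0.0636), and PCK2, a mitochondrial enzyme of glucose and serine metabolism, had 0.50 (0.0638). Among 18 cytosolic aminoacyl-tRNA synthetases, which load amino acids onto tRNA, GARS1 rose by 0.28 (SE 0.05, limma adjusted p = 0.0474) and 0 fell; the median of the list was 0.14, and 9 of 18 were higher in all 4 combinations. The 25 genes of ribosome biogenesis had a median of 0.14 with 0 past the threshold, and 10 were higher in all 4 combinations, among them DDX21, an RNA helicase of the nucleolus, at 0.22 (limma adjusted p = 0.117). Of 10 genes of glutathione synthesis and breakdown, 0 passed.

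CXCL2, a chemokine that attracts neutrophils and is induced by NF-kB, rose with EGF by 0.65 (log2, SE 0.07, 1.57-fold, limma adjusted p = 0.00782). In experiment 1 it was at 13.02 in Rab25 cells with EGF against 12.22 and 12.37 in starved Rab25 cells, and at 13.51 in pcDNA cells with EGF against 13.00 and 13.20 in starved pcDNA cells. In experiment 2 it was at 11.28 in Rab25 cells with EGF against 10.37 and 10.34 in starved Rab25 cells, and at 11.76 in pcDNA cells with EGF against 11.28 and 11.15 in starved pcDNA cells. The experiments lay far apart in level, and within each of them the EGF array was above both starved arrays of its line. CCL20, a chemokine that attracts T and dendritic cells, rose by 0.44 (SE 0.08, limma adjusted p = 0.0474), with 9.03 and 8.62 in Rab25 cells with EGF, 9.62 and 9.31 in pcDNA cells with EGF, and 8.04 to 9.45 over the 8 starved arrays. The cytokine gene IL1A rose by 0.35 (SE 0.07, limma adjusted p = 0.0474), with 13.11 to 13.62 on the EGF arrays and 12.50 to 13.52 on the starved arrays. Across lines and experiments both genes overlapped between the groups, but not within a line and experiment.

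The windows of both chemokine genes are shown because they hold the NF-kB consensus on either strand, as 9.96% of all windows do (capitals). They are chr4:74099196-74099445, minus strand, for CXCL2, 67 bases before the start and with 2 overlapping matches in 1 run, and chr2:227813592-227813841, plus strand, for CCL20, 69 bases before the start (GRCh38.p14).
CXCL2: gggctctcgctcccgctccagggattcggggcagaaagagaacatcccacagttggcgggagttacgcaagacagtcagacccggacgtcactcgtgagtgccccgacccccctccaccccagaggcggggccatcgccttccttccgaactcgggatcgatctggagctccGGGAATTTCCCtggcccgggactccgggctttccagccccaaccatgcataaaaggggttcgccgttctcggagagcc
CCL20: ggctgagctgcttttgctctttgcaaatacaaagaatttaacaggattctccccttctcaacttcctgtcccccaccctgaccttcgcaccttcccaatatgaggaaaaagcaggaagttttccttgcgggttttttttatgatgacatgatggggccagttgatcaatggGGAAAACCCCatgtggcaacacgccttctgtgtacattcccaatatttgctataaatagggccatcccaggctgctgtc
Of the 22 rises with a window, 5 hold this motif (ALAS1, CCL20, CXCL2, GDF15 and UPP1), and of the 22 falls 3 (C14orf93, CTDSP2 and RNF103). Among 26 measured NF-kB targets, CXCL2, CCL20 and IL1A rose and 0 fell, where 0.243% of all genes rose past the threshold. All 26 had a log2 change above 0, where 6076 of 11940 genes did, with a median of 0.24. In all 4 combinations of line and experiment 14 were higher, as 10.7% of all genes were. IL1B, a cytokine, had 0.29 (limma adjusted p = 0.0567).

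The other named rises were of genes with several functions. BCL2A1, which restrains apoptosis, rose by 0.58 (log2, SE 0.09, limma adjusted p = 0.0334), with 10.36 and 10.75 in Rab25 cells with EGF against 9.41 to 10.30 on starved Rab25 arrays, and 9.58 and 9.75 in pcDNA cells with EGF against 8.67 to 9.56 on starved pcDNA arrays. UPP1, which breaks down uridine, rose by 0.50 (SE 0.06, limma adjusted p = 0.00782), with 11.01 and 9.98 in Rab25 cells with EGF against 9.44 to 10.42, and 11.26 and 10.21 in pcDNA cells with EGF against 9.73 to 10.85 on the starved arrays of the same line. The BCL2A1 arrays with EGF were above all starved arrays of their line, whereas for UPP1 they were so only within each experiment. KCNG1, a silent subunit of voltage-gated potassium channels, and ZFP69B, a zinc finger protein, rose by 0.48 each, SYBU, which links cargo to kinesin, by 0.45, and GCH1, which opens the synthesis of tetrahydrobiopterin, by 0.43. The hair keratin KRT34, the glycoprotein hormone STC1 and the stress cytokine GDF15 rose by 0.42, 0.41 and 0.39. Other probe sets of KCNG1 and GDF15, with lower mean signal, gave -0.05 and 0.05, while those of STC1 gave 0.47 and 0.24.

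ADAMTS5, a protease that cleaves aggrecan in the extracellular matrix, had the lowest p of all genes. It was at 6.71 and 7.30 in Rab25 cells with EGF in experiments 1 and 2, against 7.49 and 7.59, and 8.01 and 8.28 in starved Rab25 cells of these experiments. In pcDNA cells with EGF it was at 6.29 and 6.62, against 6.83 and 6.89, and 7.32 and 7.37 in starved pcDNA cells. Every EGF array was below all starved arrays of its line. It fell by 0.74 on the log2 scale (SE 0.06, 1.67-fold lower, limma adjusted p = 7.17e-04), with 95% interval limits of -0.88 and -0.60, and its 4 separate differences were -0.83 and -0.84 in Rab25 cells and -0.57 and -0.72 in pcDNA cells.

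CXCR4, the receptor of the chemokine CXCL12, was at 9.43 and 7.49 in Rab25 cells with EGF, against 9.64 to 10.38 on starved Rab25 arrays, and at 9.03 and 6.98 in pcDNA cells with EGF, against 8.36 to 9.30 on starved pcDNA arrays. The EGF arrays of experiment 2 lay well below the others. It fell by 1.22 on the log2 scale (SE 0.23, 2.34-fold lower, limma adjusted p = 0.0474), and its other probe sets gave -1.07 and -0.86. FOXO1, a transcription factor that AKT restrains, fell by 0.44 (SE 0.09, limma adjusted p = 0.0477), with 9.65 and 9.46 in Rab25 cells with EGF against 9.91 to 10.46, and 9.80 and 9.20 in pcDNA cells with EGF against 9.58 to 10.03 on the starved arrays. In pcDNA cells of experiment 1 the EGF array lay between the 2 starved arrays, 9.79 and 10.03. IGF1R, the receptor of IGF, fell by 0.29 (SE 0.05, limma adjusted p = 0.0474). With ADAMTS5, these were the 4 members past the threshold among 26 measured genes of FOXO activity and growth factor withdrawal, of which 0 rose. Of all genes, 0.209% fell past the threshold. The list's median was -0.22. In all 4 combinations of line and experiment 12 were lower and 1 was higher, as 9.73% and 10.7% of all genes were.

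DEPP1, a gene that FOXO factors induce, stood outside that list. It was at 7.32 and 6.40 in Rab25 cells with EGF against 7.18 to 8.23 on starved Rab25 arrays, and at 8.50 and 6.72 in pcDNA cells with EGF against 7.39 to 9.02 on starved pcDNA arrays. The groups overlapped across experiments but not within a line and experiment. It fell by 0.71 (log2, SE 0.13, limma adjusted p = 0.0415), while its other, dimmer probe set gave 0.03. Its window, chr10:44978810-44979059 on the minus strand (GRCh38.p14), is shown because it holds the FOXO motif GTAAACA, searched on both strands and found here 173 bases before the start on the strand of the gene (capitals).
DEPP1: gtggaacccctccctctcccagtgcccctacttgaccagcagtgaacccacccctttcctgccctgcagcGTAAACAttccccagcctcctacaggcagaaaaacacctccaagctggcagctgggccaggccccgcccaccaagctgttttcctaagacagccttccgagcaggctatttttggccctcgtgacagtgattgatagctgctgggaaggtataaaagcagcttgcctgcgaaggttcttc
The motif is in 2.98% of all windows, in 3 of the 22 falls with a window (CNNM3, DEPP1 and GRAMD1C) and in 1 of the 22 rises (GDF15).

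KCNJ2 encodes an inwardly rectifying potassium channel that holds the resting potential. It was at 7.08 and 7.67 in Rab25 cells with EGF, against 7.80 and 7.82 in experiment 1 and 8.63 and 8.75 in experiment 2 in starved Rab25 cells. In pcDNA cells with EGF it was at 7.12 and 7.57, against 7.48 and 7.65, and 8.05 and 8.08 in starved pcDNA cells. The EGF array was below both starved arrays in each line and experiment. It fell by 0.68 on the log2 scale (SE 0.09, 1.60-fold lower, limma adjusted p = 0.0121). Of 13 measured inward rectifier genes it was the only one past the threshold; the other 12 lay between -0.10 and 0.15, and KCNJ15, with the next lowest p, had 0.15 (limma adjusted p = 0.330).

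NOX4, an NADPH oxidase that makes hydrogen peroxide, fell by 0.78 (log2, SE 0.15, limma adjusted p = 0.0474), with 6.46 and 7.08 in Rab25 cells with EGF against 7.72 to 8.31 on starved Rab25 arrays, and 6.35 and 7.03 in pcDNA cells with EGF against 6.54 to 7.67 on starved pcDNA arrays. The Rab25 groups did not overlap, and the pcDNA groups did. A pair of WNT pathway genes was lower: DKK1, a secreted inhibitor of WNT signalling, fell by 0.54 (SE 0.07) and FZD2, a WNT receptor, by 0.40 (SE 0.06, limma adjusted p = 0.0121 each). DKK1 was at 10.71 and 10.20 in Rab25 and pcDNA cells with EGF in experiment 1, against 10.74 to 11.52 in starved cells, and at 12.30 and 12.00 in experiment 2, against 12.33 to 12.79 in starved cells. The zinc finger factor ZBED2 fell by 0.54, RGCC, a regulator of the cell cycle, by 0.52, the ubiquitin ligase gene RNF103 by 0.43 and the sterol carrier gene GRAMD1C by 0.42.

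**Figure D2:**
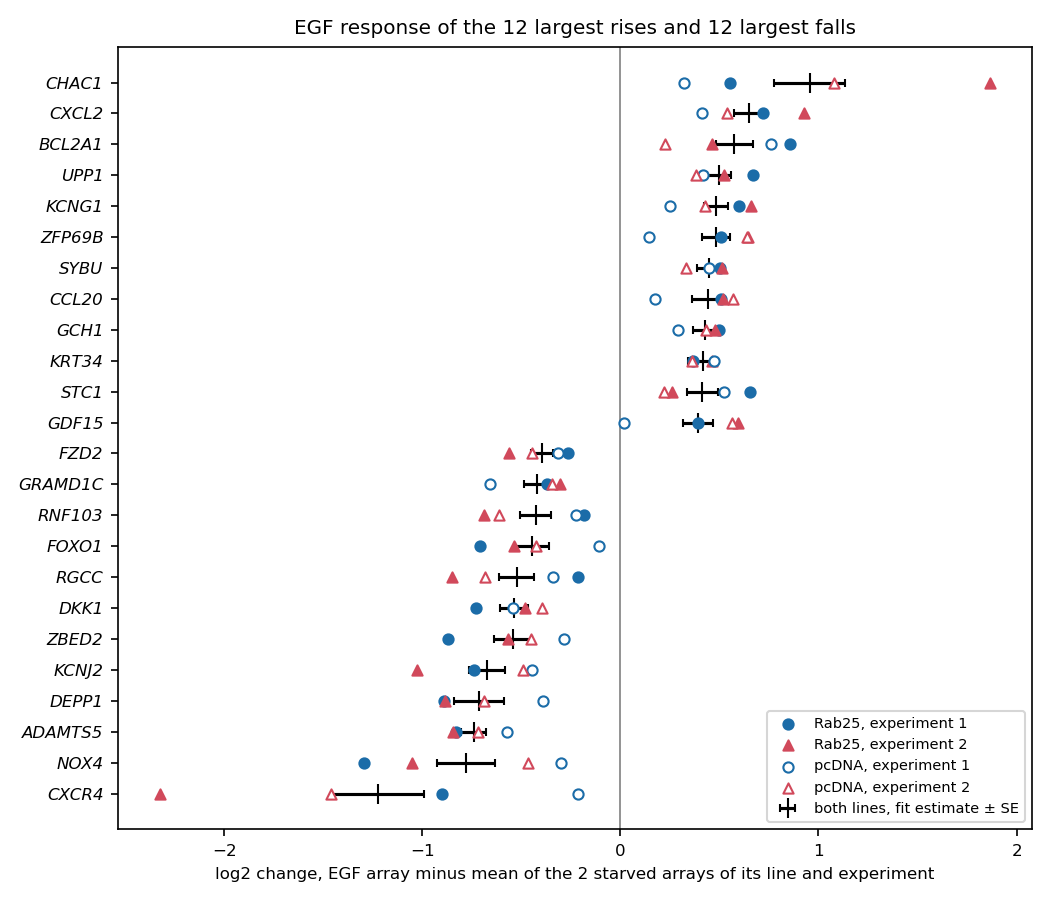
Log2 change of the 12 largest rises and 12 largest falls, as the EGF array minus the mean of the 2 starved arrays of its line and experiment. Filled symbols are Rab25 cells, open symbols pcDNA cells, circles experiment 1 and triangles experiment 2, and black bars are the fit over both lines with its SE; CXCR4 runs from -0.21 to -2.33 and all symbols of a gene lie on the same side of 0.

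The remaining 30 genes past the threshold had log2 changes of 0.23 to 0.37 or of -0.37 to -0.25, and those named here beyond the list members were chosen after their values were seen. The rises included CHUK, a kinase that activates NF-kB, at 0.37, RNF41, a ubiquitin ligase of the receptor ERBB3, at 0.35, GOT1, which converts aspartate, at 0.33, BRIX1, of ribosome assembly, at 0.29, the adhesion receptor gene PVR at 0.28 and ALAS1, of heme synthesis, at 0.23. The falls included the death receptor gene TNFRSF21 at -0.37, TFAP2C and the kinase gene NUAK1 at -0.36 each, SAV1, a scaffold of the Hippo pathway, at -0.29, the growth suppressor ING4 at -0.27 and GLUL, which makes glutamine, at -0.25.

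The receptors and ligands of the EGF family were measured for 11 of 12 listed genes, and 0 passed the threshold. EGFR was at 13.08 to 13.60 on the EGF arrays and 13.19 to 13.58 on the starved arrays, a difference of -0.08 (log2, 95% interval -0.28 to 0.12). ERBB2 had -0.15 (-0.30 to 0.01), ERBB3 -0.04 and ERBB4 -0.15. Among the ligands, HBEGF had the largest difference, 0.42 (SE 0.11, limma adjusted p = 0.123), with 9.79 and 10.03 in Rab25 cells with EGF, 10.58 and 10.66 in pcDNA cells with EGF, and 8.94 to 10.42 over the starved arrays. NRG1, EGF, BTC, TGFA, EREG and NRG2 lay between -0.05 and 0.10. Over the 12 arrays ERBB3, EGF, BTC and EREG were at 4.69 to 5.80 and ERBB4 at 5.55 to 6.23, near or below the mean blood cell marker signal. For such dim probe sets a small difference does not show that expression was unchanged. TGFA, at 10.8 to 11.3, was bright. Of 11 adaptors and restraints of these receptors, 0 passed.

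Of 27 immediate-early factors 0 passed over both lines. Their median was 0.13. In all 4 combinations 9 were higher and 2 lower, as 10.7% and 9.73% of all genes were. FOSL2, an AP-1 factor, had 0.30 (limma adjusted p = 0.0758), and ATF3, a stress-induced factor, had 0.53 (0.106). Of 16 ERK feedback and ETV genes 0 passed; DUSP4, a phosphatase that turns ERK off, had -0.29 (limma adjusted p = 0.0634), and PLAUR, the urokinase receptor gene, had 0.21 (0.0681). In the cell cycle lists, 0 of 27 genes of G1/S and DNA replication passed (median 0.07), 0 of 30 of G2/M and mitosis (median -0.09) and 0 of 12 D cyclins and CDK inhibitors, where CDKN1C, an inhibitor of cyclin-dependent kinases, had -0.52 (limma adjusted p = 0.0564). The medians of the 19 SRF and actin genes, the 21 genes of cholesterol and fatty acid synthesis and the 26 of glycolysis and hypoxia were 0.03, 0.00 and 0.07, with 0 past the threshold in each.

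**Figure D3:**
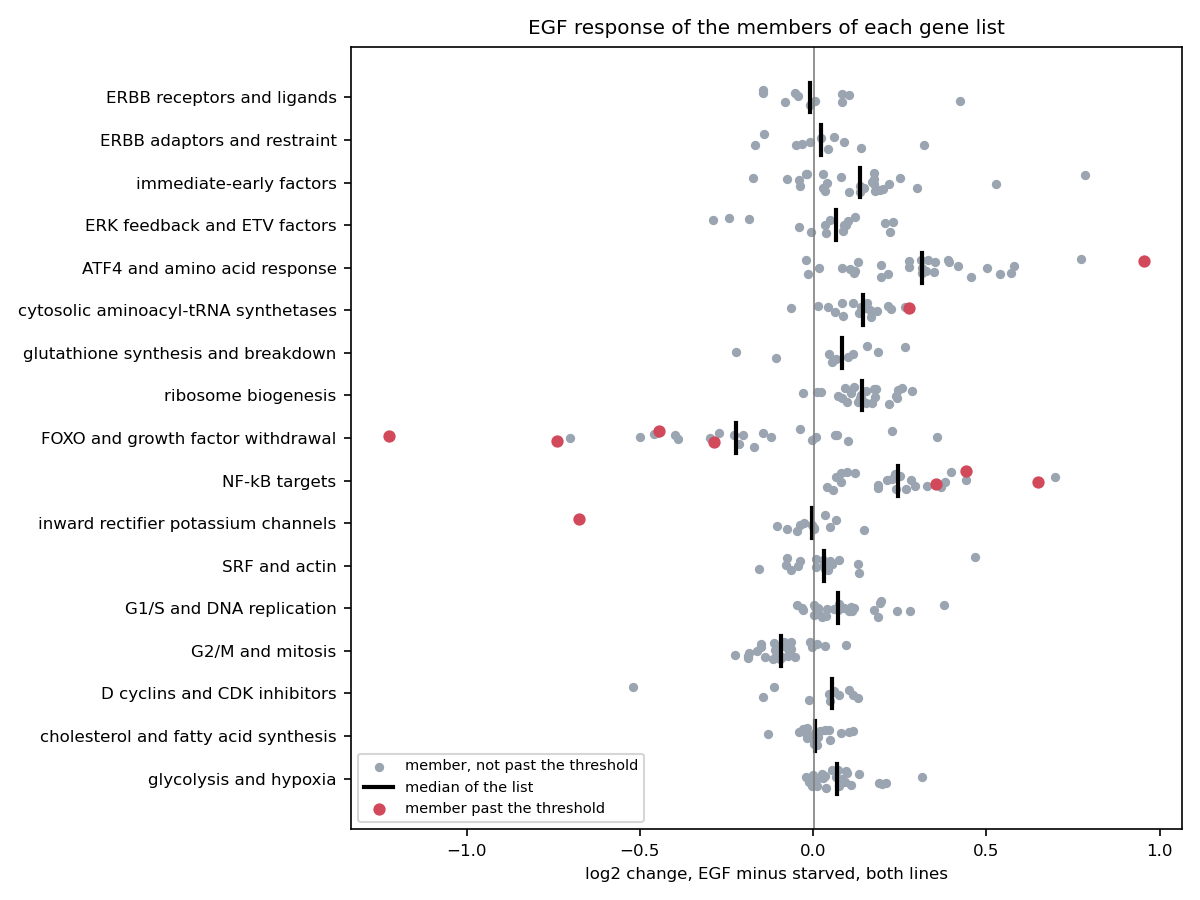
Log2 change with EGF over both lines for each measured member of 17 gene lists. Red points passed the threshold, grey points did not, black bars are list medians and the grey line the median of all genes; the ATF4 and NF-kB medians are 0.31 and 0.24 and the FOXO median -0.22.

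EGR1, the immediate-early zinc finger factor, had the lowest p of all genes for a difference between the lines in the EGF response. It was at 7.76 and 8.62 in Rab25 cells with EGF, against 6.50 to 6.88 on starved Rab25 arrays, and at 5.78 and 6.10 in pcDNA cells with EGF, against 5.71 to 6.07 on starved pcDNA arrays. The Rab25 groups were far apart and the pcDNA groups overlapped within experiment 1. The pcDNA values lay near the mean blood cell marker signal, 5.65 to 5.82 over the 12 arrays, and no detection limit is stated. In pcDNA cells a lack of EGR1 response cannot be told apart from a signal too low to measure. Over both lines the change was 0.79 (log2, SE 0.23, limma adjusted p = 0.158), and it was 1.49 in Rab25 cells (SE 0.16, limma adjusted p = 0.0035) and 0.08 in pcDNA cells (limma adjusted p = 0.983). The difference between the lines was 1.42 (SE 0.23, 95% interval 0.92 to 1.91), with a limma adjusted p over all genes of 0.642. Another probe set of EGR1, with lower signal, gave 0.09 over both lines. The EGR1 window, chr5:138465229-138465478 on the plus strand (GRCh38.p14), is shown for its 2 CArG boxes, the elements that serum response factor binds (capitals; each matches the motif on both strands). The box is in 1.16% of all windows. It is in 1 of the 22 rises with a window (GARS1) and in 3 of the 22 falls (CXCR4, ING4 and NOX4).
EGR1: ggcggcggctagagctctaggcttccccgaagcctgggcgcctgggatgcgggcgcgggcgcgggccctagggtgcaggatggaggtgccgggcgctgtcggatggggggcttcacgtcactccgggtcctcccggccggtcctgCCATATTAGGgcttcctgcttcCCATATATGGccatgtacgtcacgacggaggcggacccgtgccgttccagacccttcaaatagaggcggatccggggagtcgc

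The EGF response of no gene differed between Rab25 and pcDNA cells past the threshold (0 of 11940 by limma, 695 at an unadjusted p under 0.05, lowest adjusted p 0.642). The count was 2 without Rab25 EGF replicate 1 and 0 without any other single array. Within the same fit, Rab25 cells had 30 genes past the threshold (0.251%), 19 higher (0.159%) and 11 lower (0.0921%), and pcDNA cells had 0, with 695 at an unadjusted p under 0.05; as the difference itself did not pass, this does not show that the lines differ. A fit of the Rab25 arrays alone called 0 genes (1560 at an unadjusted p under 0.05, lowest adjusted p 0.0577), so all 30 calls, that of EGR1 included, were lost there. Of the 30, 17 were among the 54 and 13 were not, such as SLC7A11, the cystine carrier, at 0.73 and the cytokine gene IL6 at 0.67 in Rab25 cells, both named after their values were seen. The change was larger in Rab25 than in pcDNA cells for 47 of the 54 genes, among them 28 of the 29 rises and 19 of the 25 falls. This share was not counted over all genes and no line difference passed, so it does not show that Rab25 cells responded more. NOX4 fell by 1.17 in Rab25 cells, with -0.38 in pcDNA cells (line difference -0.79, 95% interval -1.23 to -0.35). KCNJ2 fell by 0.88 in Rab25 cells, with -0.47 in pcDNA cells (difference -0.41, -0.73 to -0.09). The intervals are for single genes and are not adjusted for the number of genes tested. Neither of these line differences passed the threshold, so neither gene is shown to depend on the line. RGCC had a line difference of -0.02 (-0.42 to 0.38), FZD2 of -0.03 (-0.29 to 0.22) and KRT34 of 0.00 (-0.33 to 0.33).

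The EGF response of 13 genes differed between the experiments by limma (0.109%), 8 with a higher (0.067%) and 5 with a lower (0.0419%) response in experiment 2. The largest difference was that of BCL6, a transcriptional repressor that FOXO factors induce. With EGF in experiment 2 it was at 7.85 in Rab25 and 8.47 in pcDNA cells, against 9.42 to 9.82 in starved cells, and with EGF in experiment 1 at 10.74 and 10.80, against 10.53 to 10.79 in starved cells. It thus fell by 1.49 in experiment 2 (SE 0.10, limma adjusted p = 8.17e-05), with 0.09 in experiment 1 (limma adjusted p = 0.821), and the difference was -1.57 (SE 0.15, limma adjusted p = 0.00235). CCNG2, a cyclin that slows the cell cycle, had -0.95 in experiment 2 and 0.06 in experiment 1, and HBP1, a repressor of growth genes, had -0.95 in experiment 2 and -0.05 in experiment 1. IRS2, an adaptor of insulin and IGF receptors, had -0.76 in experiment 2 and -0.16 in experiment 1, and HECA had -0.59 in experiment 2 and 0.10 in experiment 1. BCL6, CCNG2, HBP1 and IRS2 are members of the FOXO and growth factor withdrawal list.

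In the other direction, the nucleotide receptor gene P2RY2 rose by 0.37 in experiment 2 and fell by 0.46 in experiment 1 (limma adjusted p of the difference 0.00235), and the potassium channel gene KCNK3 rose by 0.36 in experiment 2 and fell by 0.58 in experiment 1. P2RY2 with EGF in experiment 2 was at 7.34 in Rab25 and 6.98 in pcDNA cells, and with EGF in experiment 1 at 6.77 and 6.35. The vitamin D receptor gene VDR was at 10.25 in Rab25 and 10.12 in pcDNA cells with EGF in experiment 2, against 9.25 to 9.52 in starved cells, and at 8.90 and 9.10 with EGF in experiment 1, against 9.24 to 9.31 in starved cells. Its changes were 0.80 in experiment 2 and -0.28 in experiment 1. VIPR1, a receptor of the peptide VIP, had 0.08 in experiment 2 and fell by 1.06 in experiment 1. The clock gene PER2 rose by 0.80, the GTPase gene GBP1 by 0.54 and the collagen chaperone gene SERPINH1 by 0.47 in experiment 2, with 0.01, -0.26 and -0.16 in experiment 1, and SLC46A3 had -0.11 in experiment 2 and fell by 0.63 in experiment 1.

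**Figure D4:**
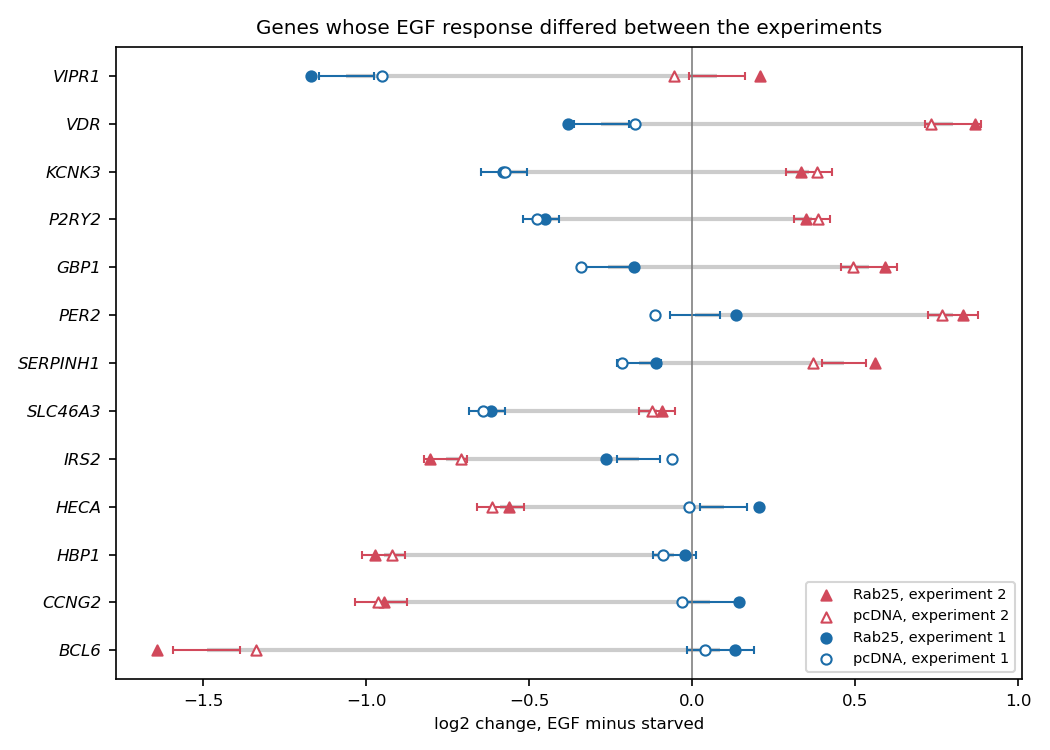
Log2 change with EGF of the 13 genes whose response differed between the experiments. Triangles are experiment 2 and circles experiment 1, filled for Rab25 and open for pcDNA cells, with the SE of each experiment's estimate; BCL6 lies at -1.64 and -1.34 in experiment 2 and at 0.13 and 0.04 in experiment 1.

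Taken by experiment in this fit, 105 genes passed in experiment 2 (0.879%), 79 higher (0.662%) and 26 lower (0.218%), and 29 in experiment 1 (0.243%), 5 higher (0.0419%) and 24 lower (0.201%). With experiment 1 fitted alone 0 genes passed (1206 at an unadjusted p under 0.05, lowest adjusted p 0.0522), so the 29 calls were lost there, and with experiment 2 fitted alone 108 passed. In the joint fit ADAMTS5 fell and UPP1 rose in both, and P2RY2 and KCNK3 passed in both with opposite signs. In experiment 2, 11 of the 30 ATF4 genes rose: CHAC1 by 1.47, the mTORC1 inhibitor gene DDIT4 by 1.24, the asparagine synthetase gene ASNS by 0.88, TRIB3 by 0.85, PCK2 by 0.79, SLC1A4 by 0.66, CEBPG by 0.63, VEGFA by 0.59, the amino acid carrier genes SLC7A5 and SLC1A5 by 0.56 and 0.48, and CEBPB by 0.38. In experiment 1, 0 of the 30 passed, and for 0 of the 30 did the test of the difference between the experiments pass. Of the 26 NF-kB targets, 7 rose in experiment 2, among them LIF by 0.69 and the feedback genes NFKBIA and TNFAIP3 by 0.53 and 0.46, and 0 in experiment 1. Of the 26 FOXO genes, 8 fell in experiment 2, among them CXCR4 at -1.89 and TXNIP at -0.64, and 1, ADAMTS5, in experiment 1. HBEGF rose by 0.70 (limma adjusted p = 0.0170) and SOCS2, which restrains cytokine receptors, by 0.76 in experiment 2. The falls of experiment 1 in the joint fit included COL1A1, THBS1 and HTRA1, genes of the extracellular matrix, at -1.34, -1.10 and -0.76, and KRT7 at -0.57, of which COL1A1 is on the fibroblast and KRT7 on the epithelial marker list, and its rises were BCL2A1 at 0.81, CCL3 at 0.78, LCN2 at 0.75, STC1 at 0.59 and UPP1. COL1A1 was uneven between the starved pcDNA arrays of experiment 1, at 7.80 on replicate 1-1 and 6.80 on replicate 1-2. Genes named here by experiment were chosen after their values were seen. The exposure that the protocol assigns to each experiment and any other difference between the experiments cannot be told apart.

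EGF and IGF were compared directly, without the starved arrays, in the fit of all 24 arrays. The comparison called 0 of 11940 genes by limma (443 at an unadjusted p under 0.05, lowest adjusted p 0.197). CHAC1 was lower with EGF than with IGF by 0.56 (95% interval -0.98 to -0.14), SYBU by 0.40 (-0.69 to -0.12) and UPP1 by 0.43 (-0.88 to 0.02), and CXCR4 was higher with EGF by 0.91 (0.10 to 1.71); the limma adjusted p of each was 1.00. The EGF minus IGF difference was -0.06 for NOX4 (-0.54 to 0.42), 0.01 for BCL2A1 (-0.55 to 0.57) and 0.01 for EGR1 (-0.58 to 0.60).

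Beside the other treatments, which share the starved arrays with EGF, the genes named here had diverse changes. KCNJ2 was at -0.68 with EGF, -0.86 with IGF, -1.13 with TGF beta and -1.09 with FBS in the 24-array fit. CHAC1 was at 0.96 with EGF, 1.51 with IGF, 0.19 with TGF beta and -1.95 with FBS, and GDF15 at 0.39 with EGF, 0.60 with IGF, -0.38 with TGF beta and -1.35 with FBS. NOX4 was at -0.78 with EGF, -0.72 with IGF, 1.69 with TGF beta and -0.62 with FBS. ADAMTS5, CXCR4 and ZBED2 likewise had negative values with EGF, IGF and FBS and 0.54, 0.92 and 1.04 with TGF beta. BCL2A1 had 0.58, 0.57 and 0.72 with EGF, IGF and FBS and -0.13 with TGF beta.

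**Figure D5:**
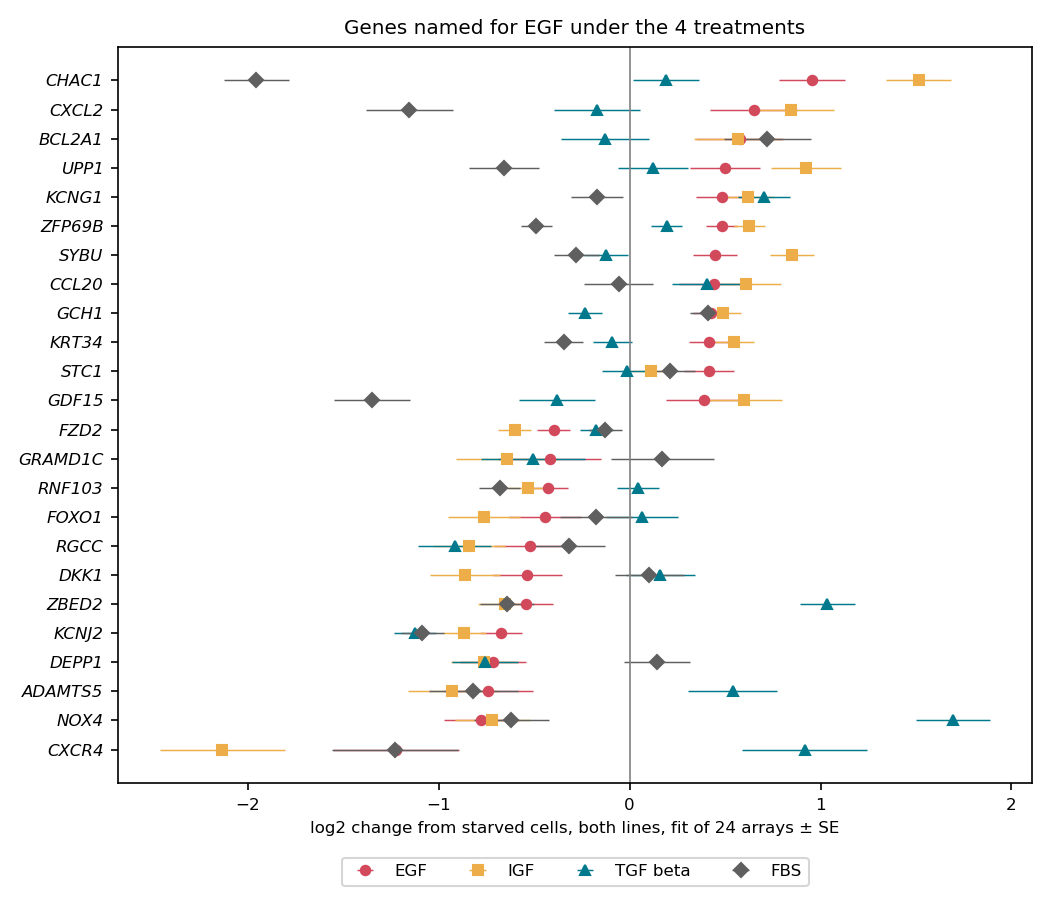
Log2 change from starved cells, over both lines in the fit of 24 arrays, of the 24 genes named for EGF under EGF, IGF, TGF beta and FBS, with SE. All treatments share the 8 starved arrays; NOX4 lies at 1.69 with TGF beta and CHAC1 at -1.95 with FBS.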

How the data were processed

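Biotin-labelled RNA had been hybridised to HT-HG_U133A Early Access arrays. The values deposited by the authors are log2 expression, 1 per probe set and array; per the submitters' processing notes MAS5 and RMA were used, with version, role and order not given in the sources used here. Of 22930 probe sets, 524 were controls, 19415 had 1 gene symbol, 125 several and 2866 none. Each of 11940 genes was represented by its brightest probe set on average over all arrays (4507 genes had more than 1); single-symbol probe sets were matched by Entrez ID to RefSeq for 19290, and 0 symbols changed.

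The 12 arrays were fitted by limma 3.58.1 (R 4.3.3, functions lmFit and eBayes), with EGF, line and experiment as terms (8 residual degrees of freedom). Treatment by line and treatment by experiment terms gave the differences and the response within each line or experiment, and EGF minus IGF came from a fit of 10 groups and experiment over 24 arrays. Adjusted p values are Benjamini-Hochberg over all genes, two-sided, with a threshold of 0.05. Experiment was a block because the labels number the experiments and the experiment deviations of 6 pairs of groups correlated over genes at r = 0.699 to 0.848. The number of arrays limits the precision; no counts or depths exist for arrays.

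Named were KCNJ2, EGR1, CHAC1, the 12 largest rises and falls past the threshold with 1 sign in all 4 combinations of line and experiment, for each difference at most 3 genes in either direction, for each list at most the 4 members with the lowest p, all ERBB receptors and ligands, and RAB25; others are said to be chosen after their values were seen. The comparison, its members and the gene lists were chosen with earlier results of these data known. The fits were tested on simulated data with independent noise on each array and no shift of level between lines or experiments. That simulation cannot test the experiment block or error shared between arrays. Alternatives were other normalizations, array weights, a trend and robust prior, a median over probe sets, removal of the lowest 40% of genes, other blocks, subsets of arrays and a 2-fold minimum.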

Additional observations from a re-analysis of the deposited data

Results flagged for a closer look

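Each of the 13 genes whose EGF response differed between the experiments by limma's test of the difference was examined again. The log2 response in experiment 2 minus that in experiment 1 was -1.57 for BCL6, -1.01 for CCNG2, -0.89 for HBP1, -0.68 for HECA and -0.59 for IRS2. It was 1.14 for VIPR1, 1.08 for VDR, 0.94 for KCNK3, 0.83 for P2RY2, 0.80 for GBP1, 0.79 for PER2, 0.63 for SERPINH1 and 0.52 for SLC46A3. Each experiment holds 1 EGF array per line.

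Among the 4 starved arrays of a line, 3 values stood apart from the others by Dixon's criterion, of 196 sets of 4 examined. These sets cover the genes described, but not RAB25 or genes named only for the marker lists. Chance would give about 5% of sets if the 4 arrays were alike. Each set holds 2 arrays of each experiment, and a shift between the experiments makes a single value harder to flag. The count is therefore no measure of array quality. BTC was at 5.11 on pcDNA starved replicate 1-2, EREG at 4.79 on pcDNA starved replicate 2-1, and KCNJ15 at 5.68 on pcDNA starved replicate 1-2. The other 3 arrays lay at 5.05, at 4.97 to 4.98 and at 5.85 to 5.89 for these genes. Of the marker genes left out, COL3A1 was at 6.60 on pcDNA starved replicate 1-1, against 5.13 to 5.28 on the other starved pcDNA arrays.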

How the results depend on the processing

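The count of 54 genes was 0 with all 24 arrays, with no replicate block, and in experiment 1, pcDNA cells or Rab25 cells alone, and 1 with a 2-fold minimum or without the first starved arrays of experiment 1, a set chosen after seeing the data. It was 71 after quantile normalization, where 30 were higher and 41 lower, 66 after median centring, 58 with the median of probe sets, 93 with line by experiment blocks, 101 with array weights, 108 in experiment 2 alone, 119 without the lowest 40% of genes and 149 with a trend and robust prior. Leaving out each array gave 2 to 87. A fit of all 19415 single-symbol probe sets, adjusted over these, kept ADAMTS5, CXCL2, DKK1, FZD2, GCH1, KCNG1, KCNJ2, SYBU, UPP1 and ZFP69B under 0.05. There the others of the 12 largest rises and 12 largest falls, CHAC1, CXCR4 and NOX4 included, had a limma adjusted p of 0.0555 to 0.0620. P2RY2 and KCNK3 had 0.37 and 0.36 over both lines in experiment 2 alone, against -0.05 and -0.11 in all 12 arrays. The replicate block, the experiment, is a term of the fits. The difference between lines stayed at 0 genes under the alternatives, the fit with no replicate block included, except that leaving out each array gave 0 to 2. The 13 experiment differences were 4 with no replicate block, 6 without the first starved arrays of experiment 1, 10 after quantile normalization, 10 after median centring, 20 without the lowest 40% of genes, 28 with a trend and robust prior and 5 to 12 with each array left out. EGF minus IGF gave 2 genes with array weights and 0 otherwise, with 0 in each fit that left out an array. The cause of these changes was not tested. With 1 EGF array per line and experiment, small changes may have been missed. The values of dim probe sets have no stated detection limit.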
